A study of Mus musculus with 574 samples.

Results

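Steady-state granulocyte/macrophage progenitors (GMPs) are the day 0 cells of a mouse bone marrow time course after 5-fluorouracil (5-FU). Of 96 cells labelled day 0, 92 passed the limits of 50000 reads and 1000 genes and were kept, out of 574 cells in the whole series. All came from C57Bl/6 mice with no engineered allele, aged 6 to 12 weeks. Marrow was enriched for c-Kit on beads, and single cells were sorted that carried c-Kit, CD34 and Fcγ receptors and lacked Sca-1 and lineage antigens. The study gave 5-FU once, at 150 mg/kg, with PBS as the control. The day 0 cells also carry the treatment label 5-FU, and the labels give neither the injection the day 0 mice had received nor their number. Day 0 is therefore 1 set of cells with no replicate, and its values are described without a test. The 4 cells left out had between 35022 and 48297 reads in genes, and the shallowest cells kept had 53589 and 59170.

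GMPs arise from multipotent progenitors and give rise to neutrophils and monocytes. The neutrophil branch fills its first granules with serine proteases and myeloperoxidase under the transcription factors C/EBPα, C/EBPε and Gfi1. The monocyte branch depends on Irf8 and on Csf1r, the receptor for macrophage colony-stimulating factor. Single GMPs can hold RNA of both branches, and a sorted GMP gate can also take in progenitors of eosinophils, basophils and mast cells.

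Sequence upstream of 3 granule genes and of Irf8 is shown because the granule and monocyte lists took opposite sides in the correlations described below. Elane and Ctsg stood at −0.42 and −0.52 with Irf8. Prtn3 stood only at −0.19 with Irf8 and had 0 of 12 values with monocyte genes at −0.3 or less. Elane encodes neutrophil elastase, Prtn3 proteinase 3 and Ctsg cathepsin G, and Elane and Prtn3 are neighbours on mouse chromosome 10. Each line is the RefSeq promoter table's sequence from 250 to 71 bases before the gene's start (GRCm38.p6), 5′ to 3′ on the gene's strand, with matches to GAGGAA, the core of the PU.1 box, in capitals. The windows lie at chr10:79886062-79886241 on the plus strand for Elane, chr10:79879417-79879596 on the plus strand for Prtn3, chr14:56102645-56102824 on the minus strand for Ctsg and chr8:120736108-120736287 on the plus strand for Irf8, and none overlaps an annotated exon. The Prtn3 window lies inside the longer GENCODE model of that gene.
Elane: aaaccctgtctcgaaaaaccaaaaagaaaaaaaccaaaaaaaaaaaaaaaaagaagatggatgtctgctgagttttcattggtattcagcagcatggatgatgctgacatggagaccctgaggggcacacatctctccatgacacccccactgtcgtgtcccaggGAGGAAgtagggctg
Prtn3: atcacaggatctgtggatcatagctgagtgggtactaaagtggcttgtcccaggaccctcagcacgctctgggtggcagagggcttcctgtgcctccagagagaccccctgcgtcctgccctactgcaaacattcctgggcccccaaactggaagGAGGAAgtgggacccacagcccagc
Ctsg: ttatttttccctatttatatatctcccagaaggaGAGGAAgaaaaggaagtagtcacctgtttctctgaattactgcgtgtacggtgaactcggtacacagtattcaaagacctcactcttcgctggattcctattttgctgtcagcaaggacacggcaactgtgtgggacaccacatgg
Irf8: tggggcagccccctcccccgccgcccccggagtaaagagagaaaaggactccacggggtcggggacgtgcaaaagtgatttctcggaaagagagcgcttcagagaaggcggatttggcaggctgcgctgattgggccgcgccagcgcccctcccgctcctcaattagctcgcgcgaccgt
Searched on both strands, GAGGAA occurred once in each of the 3 granule gene windows, at 85 to 80 bases before the start of Elane, 95 to 90 before that of Prtn3 and 216 to 211 before that of Ctsg. It was not found in this Irf8 window, which is that at the 5′-most start of the gene. Windows at any other Irf8 start were left out. The same letters occurred in 17.2% of all 32851 windows of this length. The C/EBP pattern TTGCNNAA, found in 7.42% of windows, occurred in none of these 4 windows. These are letter matches in a short window and say nothing of binding.

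The kept cells had between 53589 and 463652 reads in genes, with a median of 145092. Each cell was thinned at random to 50000 of these reads, and levels are given as reads per 1000000 (CPM), so that 1 read stands for 20 CPM. No level is divided by gene length, and all values below are from thinned cells unless stated. After thinning, cells had reads in 3851 to 5926 genes, with a median of 5143. Reads assigned to Slc34a2, annotated as a phosphate transporter, made up between 5.13% and 61.7% of a cell's reads, with a median of 18.03%. Whether they are expression of that gene or come from mapping or amplification was not tested. This share ran against the number of genes detected (Spearman correlation −0.67 over 92 cells). Xist had a read in 79 cells and the Y-linked genes Eif2s3y or Kdm5d in 9, all of which also had Xist. Genes of lymphoid cells, macrophages and stroma were at a low level. Of 10 B lineage genes, 8 had a read in under 10% of cells, and so did 8 of 9 T and NK cell genes, 4 of 8 macrophage genes and 5 of 8 stromal and endothelial genes. The defining genes Cd3d, Cd8a, C1qa, C1qb and C1qc had no read in any of the 92 cells after thinning, which allows a share of cells with a read of up to 3.26%. The summed level of these 4 lists per cell had medians of 0 to 40 CPM and highest values of 160 to 540 CPM. Exceptions were Cd79b and Pecam1, with a read in 58 of 92 cells each, and Ebf1, Vcam1 and Col1a2, in 33, 31 and 29 cells. The part of other cells or of free RNA in these reads was not tested.

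The set carried its 4 markers. Elane (ENSMUSG00000020125, chr10:79886247-79888215 on the plus strand of GRCm38) was read in all 92 cells, at a lowest of 400, a median of 16700 and a highest of 45880 CPM. Mpo (ENSMUSG00000009350, chr11:87793581-87804413, plus strand), which encodes myeloperoxidase, was also read in all 92 cells, at 3600, 45760 and 105320 CPM. Every cell thus held RNA of granule proteins. The middle 50% of cells lay between 5970 and 24215 CPM for Elane and between 33690 and 60130 CPM for Mpo. Irf8 (ENSMUSG00000041515, chr8:120736358-120756694, plus strand) was read in 79 cells, or 85.9% (exact 95% interval 77.05 to 92.26%, which covers counting error only), at 0 to 3700 CPM with a median of 280. Csf1r (ENSMUSG00000024621) was read in 65 cells, or 70.7% (60.2 to 79.7%), at 0 to 680 CPM with a median of 70. Without thinning the shares were 94.6% for Irf8 and 83.7% for Csf1r, so a cell with no read of them at this depth is not shown to lack the gene. All 4 markers were read together in 59 cells, Irf8 without Csf1r in 20, Csf1r without Irf8 in 6 and neither in 7. In GENCODE a read-through gene, Gm20388, spans the Irf8 locus on the same strand, so reads in shared exons may have been counted as ambiguous.

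The granule genes were the most widely read of the lineage lists. Of the 15 genes on the primary granule and granulocyte priming list, Azu1 has no row under that symbol and 10 of the other 14 were read in at least 90% of cells. Prtn3 ran between 220 and 11520 CPM with a median of 4640, and Ctsg between 340 and 19000 with a median of 7810. Both were read in all 92 cells. Ms4a3, which encodes a membrane protein of granulocyte precursors, had a read in 90 cells and reached 4220 CPM (median 1030). Nkg7, a granule membrane protein, was at 0 to 3680 CPM (median 760). Srgn, the proteoglycan core that packs granule contents, was at 80 to 6460 CPM (median 1590). Calr, a chaperone that folds myeloperoxidase, was at 240 to 4260 CPM (median 1520). Gstm1, Cst7 and Cebpa were read in 98.9%, 97.8% and 76.1% of cells, while Gfi1, Cebpe and Fcnb were read in 39, 34 and 17 of 92 cells. The late neutrophil genes that follow these in maturation were rare. Of 10 such genes 8 had a read in under 10% of cells, Ltf had none, and the exceptions were Lcn2 (24 cells) and S100a8 (23 cells).

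Monocyte genes were read in fewer cells and varied from cell to cell. Ly6c2, which encodes the Ly6C surface antigen, was the only one of 16 read in at least 90% of cells, at 40 to 15960 CPM with a median of 4150. F13a1, the coagulation factor XIII A chain, was read in 73.9% of cells at up to 1960 CPM (median 120). Ly86, a partner of the Toll-like receptor relative RP105, was read in 64.1% at up to 600 CPM (median 90), and Ms4a6c in 71.7% at up to 620 (median 80). Ccr2, the chemokine receptor by which monocytes leave the marrow, was read in 53.3% and Ctss, the lysosomal cathepsin S, in 40.2%. Psap, Zeb2, Ctsh and Cx3cr1 were read in 89.1%, 80.4%, 59.8% and 27.2%. Genes of later monocytes and macrophages were near the floor. Klf4 had a read in 12.0% and Cd14 in 8.70% of cells, and Fcgr1 had no read in 92 cells.

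**Figure D1:**
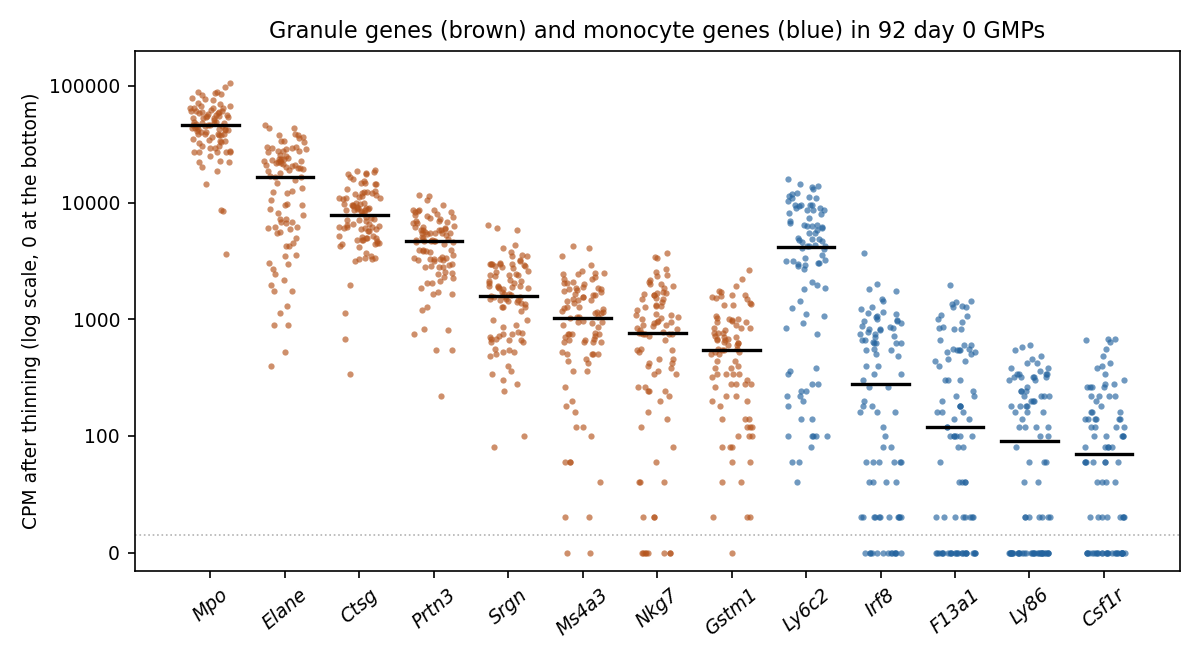
CPM after thinning (log scale, 0 at the bottom) of 8 granule genes (brown) and 5 monocyte genes (blue). Each point is 1 of 92 day 0 GMPs and the bar is the median. Elane and Mpo have a read in every cell, while Irf8 and Csf1r run from 0 to 3700 and 680 CPM. The values are not divided by gene length, so heights of different genes are not compared.

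Genes of one branch went together across cells, and genes of the 2 branches went apart. The measure was a partial rank correlation: the Spearman correlation over the 92 cells after the reads before thinning, the genes detected and the Slc34a2 share had been regressed out as ranks. It was taken for the 8223 genes read in 20% of cells or more. All pairs share the same cells and are given as a description. Within the 13 granule genes over that limit the median over 78 pairs was 0.41, and 57 pairs were at 0.3 or more. Within the 12 monocyte genes over it the median over 66 pairs was 0.44, and 49 pairs were at 0.3 or more. Over all gene pairs the median was near 0, 0.322% were at 0.3 or more and 0.228% at −0.3 or less. Between the 2 lists the median over 156 pairs was −0.32, with 82 pairs at −0.3 or less and 3 at 0.3 or more. This median was −0.21 without covariates and −0.24 with reads as the only covariate.

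The granule genes formed a tight core around Elane. Its correlation was 0.80 with Ms4a3, 0.77 with Gstm1, 0.76 with Ctsg, 0.71 with Nkg7, 0.63 with Srgn, 0.63 with its neighbour Prtn3 and 0.59 with Mpo. Outside the list, Elane went with Rgcc (0.62) and Clec12a (0.61), an inhibitory lectin receptor of myeloid cells. The lowest values for Elane were with Serinc3 (−0.63, or −0.40 without covariates), Ctss (−0.62) and Lat2 (−0.58). The median with the other 12 granule genes was 0.61 for Elane and 0.43 for Mpo. The Mpo gene's highest value was 0.64 with Prss57, a serine protease of neutrophil granules, ahead of Elane (0.59), Lta4h (0.51), which encodes leukotriene A4 hydrolase, and Srgn (0.50). Its lowest values were with Cfp (−0.48), which encodes properdin, Dek (−0.47) and Ctss (−0.47). Without covariates these 3 stood at −0.21, −0.28 and −0.27, short of the −0.3 limit. Of the 92 cells, 46 lay above the Elane median and 35 of these also lay above the Mpo median.

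Single cells show Elane and Mpo apart. Cell 76 had 520 CPM of Elane with 58700 of Mpo, and cell 35 had 900 of Elane with 82780 of Mpo. Both held Irf8, at 840 and 1440 CPM, and both had Cd34, the stem and progenitor antigen of the sort gate, at 1140 and 920 CPM against a median of 300. The cells with most Elane, 53, 29 and 90, had 45880, 43940 and 43120 CPM of it with 57360, 46860 and 55120 of Mpo. In these 3 cells Irf8 was at 20, 80 and 0 CPM and Cd34 at 20, 420 and 0 CPM.

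Across cells Irf8 went with several genes of the monocyte list. Irf8 correlated at 0.74 with Ly86, 0.73 with F13a1, 0.72 with Fcer1g, the shared signalling chain of Fc receptors, and 0.70 with Ctss. Its other nearest genes were Ifi209 (0.70), Ighm (0.70), Unc93b1 (0.70), which carries Toll-like receptors to endosomes, and Emb (0.68). Csf1r had its highest values with F13a1 (0.69), Irf8 (0.68), Fcer1g (0.68), Ighm (0.58), Unc93b1 (0.57), the adaptor Tyrobp (0.57), Tifab (0.56) and Ctss (0.56). Of 46 cells above the Irf8 median, 35 were above the Csf1r median too. The 3 cells with most Irf8, 59, 66 and 51, had 3700, 2020 and 1800 CPM of it, and 1080, 1060 and 1360 CPM of F13a1. They still held 19440, 5880 and 2700 CPM of Elane and 43000, 32360 and 14460 CPM of Mpo.

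Against Irf8 stood Cd63, the tetraspanin of primary granules, with the lowest value of all 8222 genes at −0.82. Its processed pseudogene Cd63-ps was at −0.74 and Nkg7 at −0.71, and since Cd63 and Cd63-ps may share reads they are not separate evidence. Elane and Irf8 correlated at −0.42 and Mpo and Irf8 at −0.40, closer to 0 than Cd63 and Nkg7. Without covariates the value for Elane and Irf8 was −0.33 and that for Mpo and Irf8 −0.25. Csf1r had its lowest values with Cd63-ps (−0.58), Cd63 (−0.56) and Cst7 (−0.52). Some cells were above both medians: of the 46 cells above the Irf8 median, 21 lay above the Elane median too. A median splits the cells evenly, so this count is near that of unrelated genes and shows no joint rise. The scatter of Elane against Irf8 gives every cell.

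**Figure D2:**
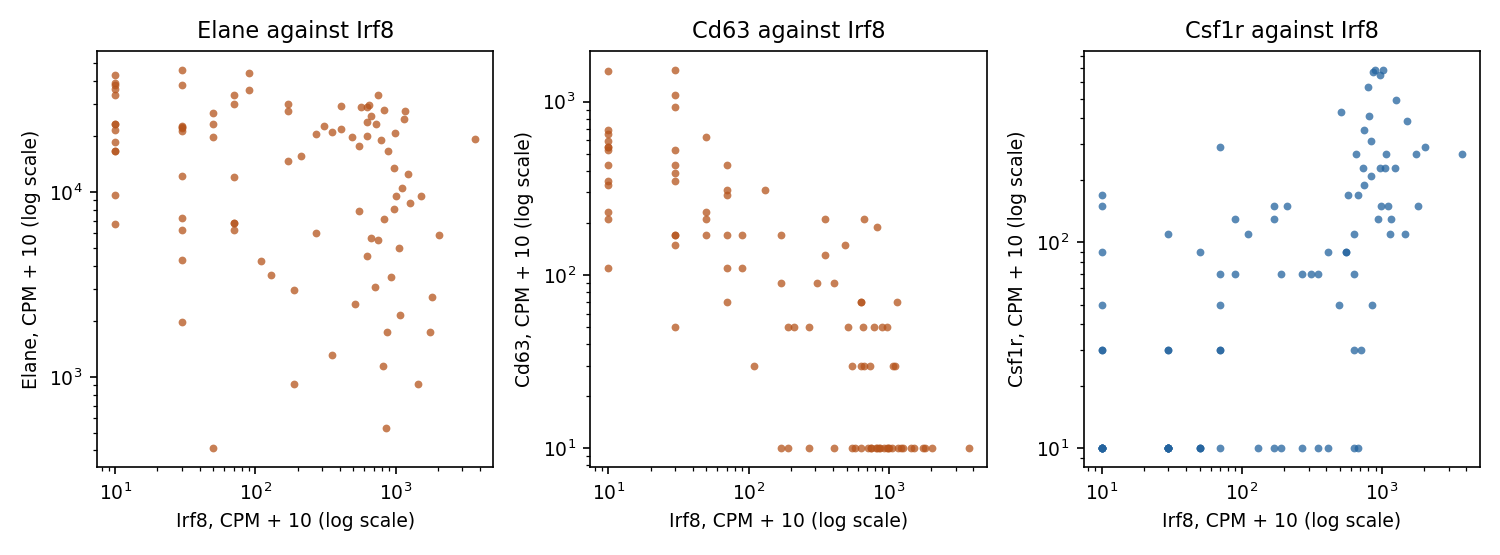
Elane, Cd63 and Csf1r (each CPM + 10, log scale) against Irf8 (CPM + 10, log scale) in the 92 cells, 1 point a cell. Cd63 is lower where Irf8 is higher (partial rank correlation −0.82), Elane spreads widely at every Irf8 level (−0.42), and Csf1r is high mainly where Irf8 is high (0.68).

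The transcription factors of the 2 branches divided in the same way, apart from Cebpa and Zeb2. Cebpe, which drives granulocyte maturation, stood at −0.68 with Irf8 and at 0.55 with Nkg7. Gfi1, a repressor of monocyte genes, stood at −0.44 with Irf8, 0.45 with Nkg7 and 0.41 with Cebpe. Cebpa, which GMPs need to form, went with neither branch: its 12 values with other granule genes ran from −0.15 to 0.03 with none at 0.3 or more, and its value with Irf8 was 0.04. Zeb2 likewise had only 1 of 11 values with monocyte genes at 0.3 or more. Cebpe and Gfi1 were read in 34 and 39 of 92 cells, so most of their ranks are ties at 0.

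Ly6c2 went with monocyte genes and also with some granule genes. It correlated at 0.47 with Irf8, 0.46 with F13a1 and 0.44 with Csf1r, but also at 0.40 with Prtn3, 0.38 with Elane and 0.34 with Gstm1. Its median with 11 other monocyte genes was 0.36, with 7 at 0.3 or more and 0 at −0.3 or less. Its median with the 13 granule genes was −0.06, with 3 at 0.3 or more and 1 at −0.3 or less. That of Irf8 with the granule genes was −0.44 with 11 at −0.3 or less. The cell with most Ly6c2, cell 29 at 15960 CPM, was also the cell with the second highest Elane. The next, cells 5 and 10 at 14300 and 13940 CPM, had 12520 and 9560 CPM of Elane and 1220 and 1000 of Irf8. The nearest genes to Ly6c2 were its close relatives I830127L07Rik (0.87), Ly6c1 (0.78) and Gm5960 (0.60), whose reads are uncertain because they may be shared. Then came Hp (0.59), which encodes haptoglobin, Tmsb4x (0.51), Slpi (0.50), a protease inhibitor, and C1galt1c1 (0.49). Its lowest values were with Adgrg1 (−0.67), an adhesion receptor of stem and progenitor cells, Tfr2 (−0.55), a transferrin receptor of erythroid progenitors, and Dapp1 (−0.48). The summed monocyte list had a median of 5600 CPM, of which Ly6c2 is the main part. That sum stood at −0.10 with the granule sum, at 0.15 without covariates and at −0.62 when each gene counted equally as a rank, so the sums give no direction between the branches.

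**Figure D3:**
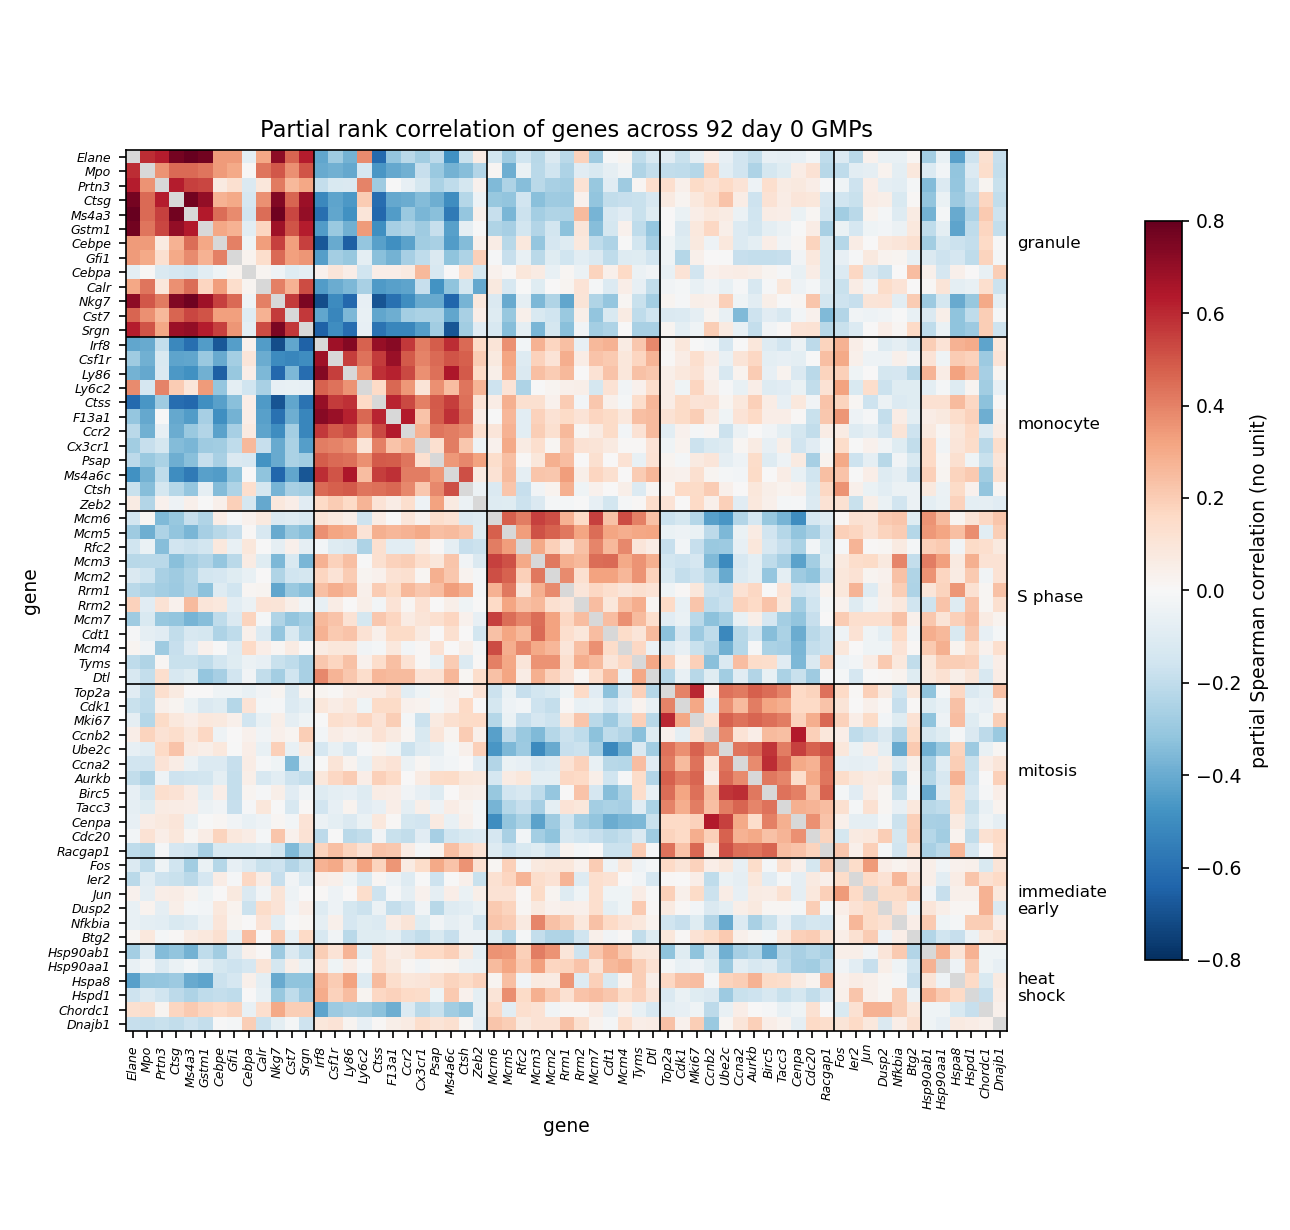
Partial rank correlation of 61 genes across the 92 cells, grouped by list (black lines); red is positive and blue negative, and the grey diagonal is a gene with itself. The granule and monocyte blocks are each red (medians 0.41 and 0.44) with blue between them (−0.32), Cebpa is pale throughout, Ly6c2 is partly red with granule genes, and S phase and mitosis genes form 2 blocks.

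A small number of genes varied far more than others of their mean level. For 6071 genes with a mean of at least 20 CPM and a read in at least 10% of cells, the squared coefficient of variation (CV2) was set against its trend over the mean. It was at least 2 times the trend for 203 genes (3.34%). None of 23 spike-ins reached that ratio (0 of 23, highest 1.25, median 0.70), whose spread holds counting and amplification but no cell biology. Of the granule list, 8 of 13 tested members were over 2 (median ratio 2.86), with Elane at 7.91, Mpo at 4.06 and Nkg7 at 3.89. Of the monocyte list, 5 of 12 were over 2 (median 1.86): Ly6c2 at 7.41, Irf8 at 4.91, F13a1 at 4.64, Psap at 3.26 and Csf1r at 2.21. The median over all genes was 1.003. The other genes among the 20 with the highest ratio that were read widely were Lyz2 (12.6), which encodes lysozyme, Slc34a2 (7.91), whose reads have an untested source, the Ly6c pseudogene I830127L07Rik (7.12) and Slpi (5.06). Tubb5, a tubulin at 4.13, was also among the 10 highest of the 1540 genes tested that were read in at least 80% of cells. The steadiest genes with a mean of at least 100 CPM were Umad1 (0.29), Ccdc12 (0.31), Fbln1 (0.35), Gm13446 (0.36) and Rpl41 (0.38). Umad1, for one, had a median of 100 and a highest value of 260 CPM. Pld4 (6.56), Slfn8 (5.70) and S100a8 (10.5) completed the higher ranks with Apoe (13.8), all read in fewer than 46 of the 92 cells. Without its highest cell the ratio of Slfn8 was 2.16.

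**Figure D4:**
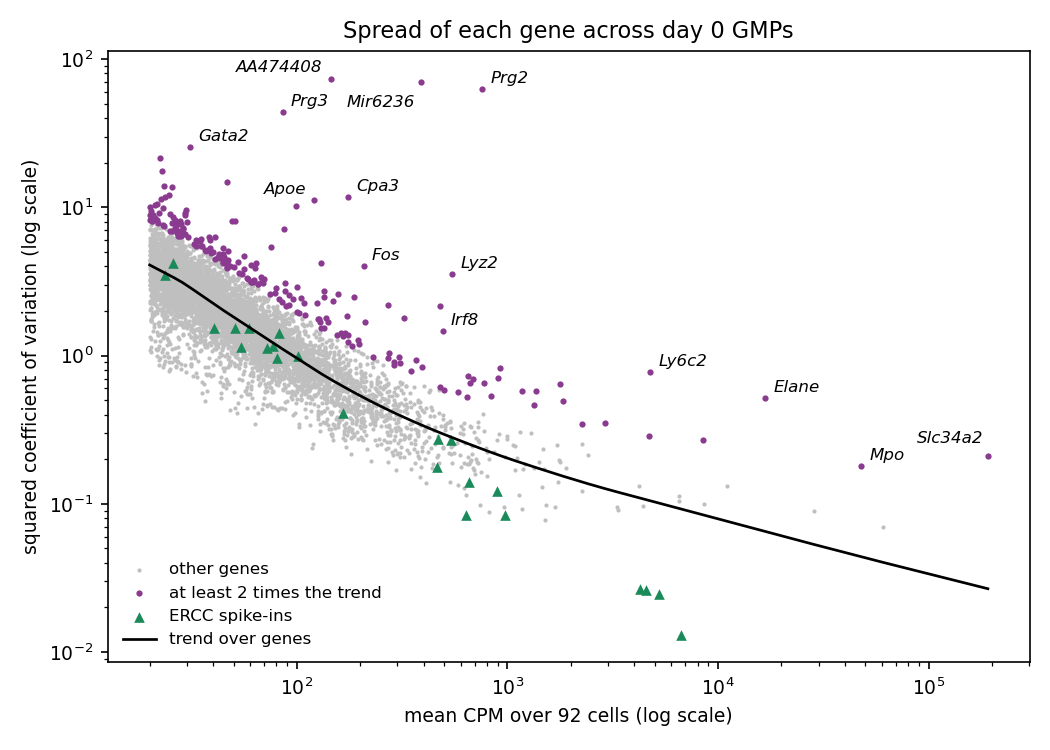
Squared coefficient of variation against mean CPM (both log scale) for 6071 genes over the 92 cells. Purple points are at least 2 times the trend (black line), grey points are other genes and green triangles are 23 spike-ins. Elane, Ly6c2 and Irf8 stand over the trend with at most 8.18% of their reads in 1 cell, while Prg2, Mir6236 and AA474408 have 80.6% to 89.7% in 1 cell.

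The highest ratios came from single cells that stood apart. Prg2, the major basic protein of eosinophil granules, had a ratio of 267 and Prg3, its homologue, of 39.4. Cell 61 held 56140 CPM of Prg2, 80.6% of the sum over all cells, and 4720 CPM of Prg3, and also had reads of Epx, Siglecf and Ear2. Cell 17 held 12880 and 2700 CPM of Prg2 and Prg3, with reads of Epx, Siglecf, Il5ra and Ear6. No other cell had over 120 CPM of Prg2. Both cells kept granule genes of the GMP, with 12220 and 9680 CPM of Elane and 33700 and 49440 of Mpo, but had 20 and 0 CPM of Irf8.

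Some basophil and mast cell genes formed a second minor group. Of the 10 genes on this list 6 had a read in under 10% of cells. Among them, 4 had no read in any cell, namely Fcer1a, Cma1, Tpsab1 and Gzmb. Cell 84 had the highest Cpa3, mast cell carboxypeptidase A, at 4700 CPM, with 1200 of Mcpt8, 580 of Ms4a2 and 320 of Gata2, and it also had the highest Apoe at 2660 CPM. Cell 72 held 1120 CPM of Prss34, 840 of Cpa3 and 600 of Mcpt8. Their Elane was low, at 4260 and 3560 CPM. The eosinophil cells 17 and 61 also had 2280 and 1180 CPM of Cpa3, so the 2 groups shared cells. Cpa3, Gata2, Mcpt8 and Hdc were over 2 times the trend (19.9, 8.81, 4.49 and 2.09), and without cells 7, 38, 61 and 84 Mcpt8 and Hdc were at 1.90 and 1.67. Of the 92 cells, 22 had a read in at least 3 of 10 basophil and mast cell genes, although Hdc, which makes histamine, was read in 90.2% of all cells and counts as 1 of the 3. The summed level of this list stood at −0.62 with the monocyte sum, of which Ly6c2 is the main part. Of 36 pairs between 3 of its members and the monocyte genes, 14 were at −0.3 or less, which is 38.9% against 0.228% of all pairs. Irf8 and Csf1r had 1.64% and 0.961% of all genes at −0.3 or less. With granule genes the same 3 basophil and mast cell members had a median of 0.13 over 39 pairs. Of these, 8 were at 0.3 or more (20.5% against 0.322% of all pairs) and 1 at −0.3 or less. Elane and Mpo had 1.61% and 0.949% of all genes at 0.3 or more. The basophil and mast cell sum stood at 0.25 with the granule sum. At least 3 members of the eosinophil list were read in 4 cells, of the late neutrophil list in 5, of the erythroid list in 1 and of the megakaryocyte list in 0. Pf4 and Gp1bb, which mark megakaryocytes, had no read in any cell, nor did Klf1, Car1 or the globins Hba-a1 and Hbb-bt.

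Cell 7 was the lowest or highest cell for several of the genes described. It had the lowest Elane (400 CPM), the lowest Mpo (3600 CPM) and the lowest summed granule and monocyte lists (6820 and 120 CPM). It had the highest Gata2 (1420 CPM), Ifitm1 (1660), Fos (3600) and Car2 (640), and Gata1 at 100 CPM, Cpa3 at 620 and Apoe at 1780. Ms4a2 was at 300, Hdc at 620 and Siglecf at 440 CPM. The basophil and mast cell list summed to 2960 CPM in this cell, at rank 4 of all cells. The erythroid list summed to 780 CPM, at rank 1. Gata2 and Gata1 are factors of mast cell, erythroid and megakaryocyte progenitors, and Car2 encodes a carbonic anhydrase of red cell precursors. Without this cell the ratio of Gata2 was 2.61, against 8.81 with it. The cell had 61969 reads, close to the lower limit, and 29.5% of them in Slc34a2. Its Cd34 was at 0 CPM and its Kit at 20 CPM, against medians of 300 and 80. Cell 38 held 31200 CPM of Mir6236, a locus annotated as a miRNA, and 11980 of AA474408, against at most 280 and 200 CPM in any other cell, beside Elane at 37840 CPM. Without cells 7, 38, 61 and 84, 171 of 6039 genes were over 2 times the trend, 15 of the first 20 among them. The 29 correlation summaries recomputed without them each moved by less than 0.1.

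A further group lay at the far monocyte side. Cells 59 and 44 held 6960 and 5920 CPM of Lyz2 against a median of 250, with 980 and 1080 CPM of Pld4, an endosomal nuclease of phagocytes, and 1020 and 2700 CPM of Slpi. Their Irf8 was at 3700 and 1740 CPM. They differed in Elane, at 19440 and 1740 CPM. At the neutrophil side, S100a8 was highest in cells 46 and 90, at 2160 and 1320 CPM, with S100a9 at 80 and 40 CPM. Both had high Elane, at 33380 and 43120 CPM, and no Irf8 read.

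Cell cycle genes also varied between cells. The 30 S phase genes were read widely, with 22 of them read in the median cell and between 9 and 29 in every cell, and summed to 800 to 9340 CPM with a median of 4090. The 30 genes of G2 and mitosis ranged further, from 2 read in a cell to all 30 (median 16.5), and summed to 140 to 8620 CPM with a median of 1710. Single members show this. Ube2c, the ubiquitin enzyme of the anaphase-promoting complex, was at 0 to 1300 CPM with a median of 10, and Top2a, a topoisomerase, at 0 to 1040 with a median of 170. Mcm6, a subunit of the replicative helicase, was at 0 to 1820 CPM with a median of 500. Of the mitosis list 9 of 30 were over 2 times the trend, namely Ube2c (5.58), Cdc20 (2.65), Ccnb2 (2.48), Plk1 (2.45), Cenpf (2.32), Mki67 (2.26), Top2a (2.22), Tacc3 (2.10) and Ccna2 (2.02). Of the S phase list 1 of 30 was, Mcm6 at 2.00, which is near the 3.34% of all genes tested. The median ratio was 1.64 for the mitosis list and 1.33 for the S phase list, against 1.003 over all genes.

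Mitosis genes went together at a median of 0.28, with 191 of 435 pairs at 0.3 or more, led by Plk1 with Ube2c (0.70), Plk1 with Hmmr (0.65) and Ccnb2 with Cenpa (0.63). S phase genes went together less closely, at a median of 0.19 with 78 of 435 pairs at 0.3 or more. Their highest pairs were among the helicase subunits, with Mcm3 and Mcm6 at 0.55 and Mcm6 and Mcm7 at 0.54. Between the lists the median was −0.12, and the 2 sums stood at −0.42. Top2a went with Mki67 (0.61), Tubb5 (0.58), Kif11 (0.56), Neil3 (0.54), H2afx (0.54) and the histone genes Hist1h2ab (0.60), Hist1h4d (0.59) and Hist1h1e (0.54), and against Ung (−0.47), the uracil glycosylase, Rars (−0.40, or −0.28 without covariates) and Hist1h2bc (−0.40). Mcm5 went with Mcm3 (0.51), the histone chaperone Nasp (0.49), Atp5b (0.48), Mcm6 (0.48), Mcm2 (0.47), Hat1 (0.47), Actb (0.46) and Gm17087 (0.46), and against B4galt6 (−0.44), Gm43581 (−0.42) and Prss57 (−0.41). The D cyclins and inhibitors went together less: the median over 36 pairs was 0.03, and 3 pairs (8.33%) were at 0.3 or more. The highest was Cdkn2d with Ccng2 at 0.39. Of 6 tested members 0 were over 2 times the trend, too few members to tell from the 3.34% of all genes. Ccnd2 and Ccnd3 were read in 83 and 81 of 92 cells, Cdkn1a in 22.8% and Cdkn1c in 2.17%.

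**Figure D5:**
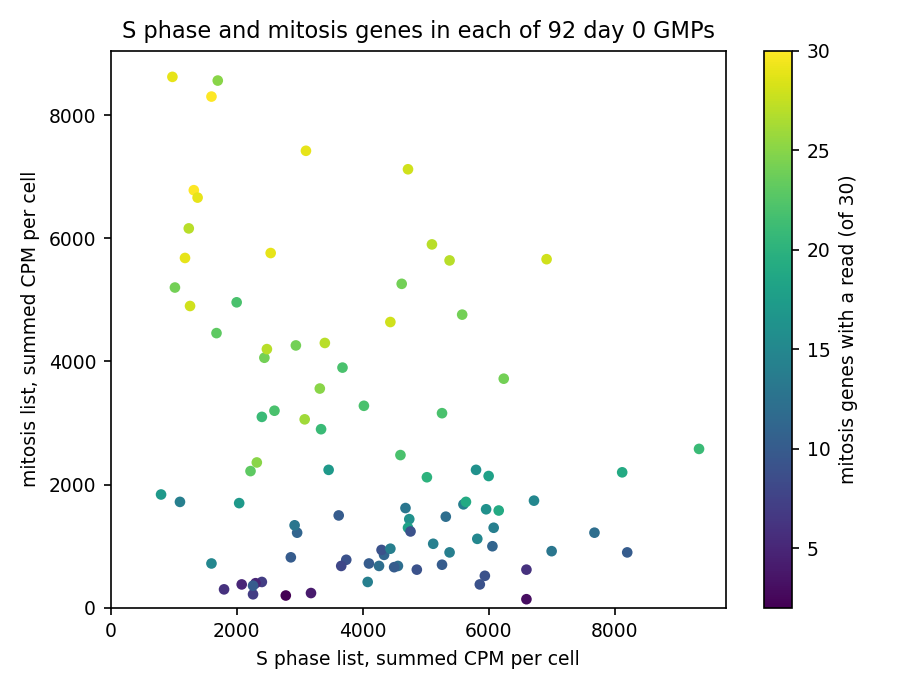
Summed CPM of the 30 mitosis genes against that of the 30 S phase genes in each of 92 cells, coloured by the number of mitosis genes with a read. Sums reach 8620 and 9340 CPM (partial rank correlation over all cells −0.42). The 3 cells with the highest mitosis sums have S phase sums of 980 to 1700, under the median of 4090. Other cells with high mitosis sums lie over it, such as cell 19 (7120 with 4720) and cell 8 (5660 with 6920).

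Mitosis genes stood near 0 with both branches, while S phase genes leaned apart from the granule genes. The granule list had a median of 0.0059 with mitosis genes over 390 pairs and the monocyte list one of −0.0064 over 360. With S phase genes the granule list had a median of −0.13, with 27 pairs at −0.3 or less (6.92%) and 0 at 0.3 or more. Over all genes, Elane and Mpo had 1.64% and 1.20% at −0.3 or less. The monocyte list had a median of 0.11 with S phase genes, with 11 pairs at 0.3 or more (3.06%) and 0 at −0.3 or less. Over all genes, Irf8 and Csf1r had 2.37% and 1.48% at 0.3 or more. The monocyte and S phase sums stood at only 0.078. The granule and S phase sums stood at −0.33. Mcm5 stood at 0.37 with Irf8, −0.40 with Nkg7 and −0.34 with Srgn. Its values with Irf8 and Nkg7 are not typical. The highest value of any S phase gene with a monocyte gene was 0.38, and the lowest with a granule gene −0.42.

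Stress genes differed by list. Immediate early genes, which cells switch on within minutes of a stimulus, varied widely. Of 11 tested members 6 were over 2 times the trend, against 3.34% of all genes tested. Fos was at 0 to 3600 CPM with a median of 80 (ratio 7.74), Dusp1 at 0 to 980 with a median of 0 (4.42) and Jun at 0 to 1340 with a median of 60 (3.04). Dusp2, Ier2 and Nfkbia were at 2.53, 2.12 and 2.08. Without cells 7, 38, 61 and 84 the ratios of Jun, Ier2 and Nfkbia were 1.55, 1.34 and 0.84, while those of Dusp1, Fos and Dusp2 were 3.12, 2.68 and 2.23. The summed list was highest in cell 7, at 10920 CPM, and next in a cell with 2740, against a median of 730. Its members went together only weakly, at a median of 0.11 with 6 of 78 pairs at 0.3 or more, among them Jun with Dusp1 (0.43), Fos with Zfp36 (0.42) and Fos with Jun (0.34). Fos also went with Glipr1 (0.42), Ubb (0.39), Emc8 (0.38), Ighm (0.37), Ctsh (0.36), Selplg (0.36) and F13a1 (0.36). It went against Slco3a1 (−0.44), Chchd3 (−0.41) and Ddx47 (−0.38). Ighm and F13a1 were also among the 8 highest for Irf8. The 37 genes at 0.3 or more with Fos are 0.450% of 8222, against 0.322% of all pairs. Between the immediate early and monocyte lists the median over 156 pairs was 0.0052, with 10 at 0.3 or more and 0 at −0.3 or less.

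Heat shock genes were read widely and varied about as much as other genes of their mean level. Hsp90ab1, a cytosolic chaperone, was at 800 to 4420 CPM with a median of 2200, and Hsp90aa1 and Hspa8 were each read in 91 of 92 cells. None of 10 tested members was over 2 times the trend (0 of 10), too few members to tell from the 3.34% of all genes. Their median ratio was 0.90, against 1.003 over all genes, and the median over 55 pairs was 0.03. The inducible Hspa1a was read in 30.4% of cells at up to 340 CPM, and Hspb1 in none. Hspa1a had no close partner: its highest value was 0.38 with Tsc22d3, followed by Cd44 (0.36), Zfp944 (0.35), Ccnd3 (0.33), Tbc1d13 (0.33), Gtf2e1 (0.33), Sh2b3 (0.33) and Clec5a (0.33), and its lowest were with Luc7l2 (−0.40), 2410004B18Rik (−0.37) and Kpna4 (−0.37). Its 23 genes at 0.3 or more are 0.280% of 8222, near the 0.322% of all pairs. Reads of Hspa1a and its near copy Hspa1b may be shared. The heat shock sum, with a median of 3160 CPM of which Hsp90ab1 is the main part, stood at 0.44 with the S phase sum, −0.38 with the mitosis sum and −0.33 with the granule sum.

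Some genes of the unfolded protein and amino acid stress list went with granule genes. Hspa5, the chaperone BiP of the endoplasmic reticulum, was read in every cell at 20 to 2740 CPM with a median of 850, and Sdf2l1 and Xbp1 in 98.9% and 97.8%. None of 8 tested members was over 2 times the trend (0 of 8), too few members to tell from the 3.34% of all genes. Within the list the median over 45 pairs was 0.05 with 1 at 0.3 or more. With granule genes the median over 130 pairs was 0.13 and the lowest −0.24. Of these pairs 19 were at 0.3 or more (14.6% against 0.322% of all pairs), and the 2 sums stood at 0.42. Elane and Mpo by themselves had 1.61% and 0.949% of all genes at 0.3 or more. The stress-induced Trib3 and Chac1 had no read in any cell, and Ddit3, which encodes CHOP, was read in 33.7%. Of 12 p53 targets, Bax, Ccng1 and Mdm2 were read in 68.5%, 52.2% and 39.1% of cells, Cdkn1a in 22.8% and 5 in under 10%. Interferon-induced genes were low, with 9 of 18 read in under 10% of cells. Bst2 was read in 64.1%, and the list summed to a median of 270 CPM, with 1 cell at 3240 and the next at 1320.

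The genes of the sort gate were read in most cells. Fcgr3, an Fcγ receptor, was read in 95.7%, Cd48 in 91.3%, Cd34 in 89.1%, Fcgr2b in 85.9% and Kit in 80.4%, while Ly6a, which encodes Sca-1, was read in 20.7% and the stem cell antigen Slamf1 in 3.26%. Cd34 ran from 0 to 1700 CPM and was the only 1 of 6 tested gate genes over 2 times the trend (2.15, or 1.99 without its highest cell). Cd34 and Fcgr3, both selected for, stood at −0.28 with each other. Of 17 stem and multipotent progenitor genes, Cd27, Meis1 and Ifitm3 were read in 90.2%, 82.6% and 81.5% of cells, Hlf in 12 cells, Mecom in 9 and Procr in 1. Ifitm3 (3.11), Ifitm1 (7.58) and Angpt1 (2.07) were over 2 times the trend, and without the highest cell of each they were at 1.88, 1.496 and 1.82. The pairs at 0.3 or more were Ifitm1 with Angpt1 (0.37), Ifitm3 with Sox4 (0.34) and Angpt1 with Txnip (0.31), 3 of 28.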

How the data were processed

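Per the labels' protocols, each GMP was sorted into its own well, reverse transcribed by Smart-seq2 and turned into a Nextera XT library. The authors deposited raw counts of reads for every gene in every cell. The submitters' processing notes name GSNAP, HTSeq 0.5.3p3 and the build mm10. The method has no molecular identifiers and marks no strand, so PCR copies are counted and antisense genes cannot be told apart. The protocol names crushed and flushed bones and does not say which the day 0 cells came from.

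The day 0 table lists 46078 genes, 92 spike-ins and 5 summary lines without a gene. The summary lines took a median of 92.3% of reads, of which unaligned reads were 80.4% of all reads, and were left out of totals. GENCODE vM21 (GRCm38, the build of mm10) gave a symbol for 45229 gene IDs. No 2 cells had identical counts (0 pairs). No doublet caller was run and cells were not clustered.

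Kept cells were thinned without replacement to 50000 reads (seed 11). CV2 was taken against a lowess trend (fraction 0.3) of log10 CV2 on log10 mean. Partial rank correlations used 3 covariates. Sums over a list weight long and highly expressed genes. Named genes were the 4 markers, the 20 highest ratios, the 10 highest among genes read in at least 80% of cells, the 5 lowest, the 8 highest and 3 lowest correlations of 9 genes, and up to 6 members of each list with its variable members. Other genes and the single cells described were chosen after their values were seen. The members, the 22 lists (291 genes) and the rules were chosen with earlier results of these data known. Steps were tested on simulated data. Promoter windows came from the RefSeq table on GRCm38.p6. The scripts ran on scipy 1.17.1, statsmodels 0.14.6, numpy 2.4.6, matplotlib 3.10.9 and pandas 2.3.3 under Python 3.11.15. Alternatives were other depths, cell filters, covariates, trends, log2(CPM + 1) and log2(CPM + 10) Pearson correlations, another seed (12) and other member counts. The mean rank in place of a sum, and leaving out cells 7, 38, 61 and 84, were added after seeing the data.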

Additional observations from a re-analysis of the deposited data

How the results depend on the processing

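Of 376 values under 17 alternative settings, 328 stayed within the stated tolerance (a correlation within 0.1, a count within 1.5 times, a share within its interval), 48 moved and 0 called correlations changed sign. Shares of cells depended on depth: Irf8 was read in 94.6% and Csf1r in 83.7% of cells without thinning, and Csf1r in 82.6% of the 69 cells with at least 100000 reads.

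The number of genes over 2 times the trend was 468 with the trend of the spike-ins, 402 with no minimum mean, 317 without Slc34a2 and CT010467.1, and 122 with each gene's highest cell left out, against 203 as reported. These share 203, 201, 180 and 110 genes with the 203. Of the 20 highest ratios, Mir6236, AA474408 and Ifitm1 were at 0.76, 0.94 and 1.496 without their highest cell.

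Without covariates the median correlation was 0.39 within mitosis genes and −0.21 between granule and monocyte genes. With 3 covariates the sums of granule and mitosis genes stood at −0.073, those of monocyte and mitosis at 0.021 and those of monocyte and S phase at 0.078. Without covariates and with reads as the only covariate, the sums of granule and monocyte genes stood at 0.15 and 0.12, those of S phase and mitosis at −0.24 and −0.28, those of granule and mitosis at 0.16 and 0.050, those of monocyte and mitosis at 0.21 and 0.17, and those of granule and S phase at −0.21 and −0.22. By mean rank over members, granule and monocyte stood at −0.62, monocyte and S phase at 0.34 and immediate early and mitosis at −0.0022.

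Cells with at least 3 members of a list depended on the cut. With at least 2 members there were 12 for eosinophil, 49 for basophil and mast cell, 21 for late neutrophil, 16 for erythroid and 8 for megakaryocyte genes, with at least 4 there were 9 for basophil and mast cell, 2 for late neutrophil and 0 for erythroid genes, and without thinning there were 9 for eosinophil, 9 for late neutrophil, 4 for erythroid and 2 for megakaryocyte genes. No paired analysis was possible because day 0 is 1 set of cells. Depth limits genes near 20 CPM, where most cells have no read and ranks are ties.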
